A study of Mus musculus with 2 samples.

Results

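The genes of cholesterol synthesis, its control by SREBP2, and the uptake, movement, storage and export of cholesterol were examined in C2C12 myotubes given exosomes of pancreatic cancer cells. The members were the probes whose gene name in the scanner files is one of 31 listed names, of which 2 (Sc4mol and Sc5dl) are older names of Msmo1 and Sc5d, leaving 29 genes. Probes were found for 28 of them, 56 probes in all, and 1 gene, Acat2, had no probe under its name. All 28 were measured, meaning well above background on both arrays at 1 probe or more, among 16993 measured genes.

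Myotubes were formed from C2C12 myoblasts, a mouse muscle line, in medium with 2% horse serum over 4 to 6 days. One culture received 4 µg of KPC-exo for 24 h. These are exosomes, small vesicles that cells release, from a cancer line derived from a pancreatic tumour of KPC mice (KrasLSL-G12D/+, Trp53LSL-R172H/+ and Pdx1-Cre) and grown in RPMI-1640 with 20% fetal bovine serum. The other culture received MPDC-exo, also for 24 h. These were released by murine ductal epithelial cells of the pancreas that were grown in DMEM with 10% fetal bovine serum. The dose of MPDC-exo is not stated in the labels. Both groups rest on 1 donor line each, and tumour origin, medium and serum differ together and cannot be told apart. With a single array for each group, differences are between 2 arrays and carry no test.

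Cells build cholesterol from acetyl-CoA through the mevalonate pathway, squalene and a series of sterols. The transcription factor SREBP2 switches these genes on when membranes run short of sterol: SCAP then carries it out of the endoplasmic reticulum, and INSIG proteins hold it back when sterol is plentiful. Cholesterol taken up from lipoproteins leaves the lysosome through NPC2 and NPC1, surplus is stored as ester by SOAT1, and the oxysterol-activated LXR receptors turn on the exporters ABCA1 and ABCG1. In muscle, cholesterol is a component of the plasma membrane and of the caveolae and transverse tubules that form from it.

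The arrays differed in overall brightness, with a 75th percentile of the signal of 639 units for KPC-exo and 380 units for MPDC-exo. Each value below is therefore the log2 signal minus the array's own 75th percentile, and a difference is KPC-exo minus MPDC-exo on that scale. The median difference of all measured genes was 0.06, and the central 95% ran from -0.73 to 0.68. Technical error can be read from the files in more than one way. The scanner software's error model gave 0.20 to 0.21 on the log2 difference of each member's brightest measured probe, mostly from a fixed 10% term that it assigns to each spot. Different probes of 1 gene had a pooled SD of 0.36 in their log2 difference over 5736 genes, and of 0.21 over the 14 members with 2 or more measured probes. How much cultures of one group vary is in neither figure. All 10 myotube markers examined were measured, while Epcam, Cdh1, Krt8, Krt18, Krt7 and Muc1 of the 8 epithelial markers were not well above background on both arrays. The summed linear signal of the markers, in multiples of the 75th percentile, was 347.6 for KPC-exo and 341.7 for MPDC-exo for myotubes, 1.4 and 1.5 for epithelium, 5.8 and 5.3 for macrophages, 0.3 and 0.3 for endothelium, 0.5 and 0.4 for adipocytes, and 125 and 100 for fibroblasts. All 4 fibroblast markers were measured, with a median log2 difference of 0.24, though Dpt had -0.30. The 4 measured macrophage markers had a median of 0.26, from -0.87 (Csf1r) to 0.63 (Cd68), and the 2 measured adipocyte markers 0.31. Single myotube markers ranged from -0.43 (Ckm) to 0.60 (Mb). The part of fibroblast-like or other cells, or of the state of the myotubes, in the differences below was not tested.

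Most cholesterol genes lay slightly lower on the KPC-exo array relative to the other measured genes, though not when genes near background were counted among those, and 2 members stood further down: Insig1, a sterol-sensing brake on SREBP2, and Soat1, the enzyme that stores cholesterol as ester. The median log2 difference of the 28 members was -0.11, against 0.06 for all measured genes, a sign that turns to 0.89 against 1.06 when the arrays are centred on spike-in controls. Of the 28, 23 lay below the median of all genes and 5 above it. With no filter on dim probes that median was -0.15 and 11 of 28 lay below it, while normexp gave 18 of 28 and the removal of background-flagged spots 17 of 25. At least 1.5-fold lower were 2 members, or 7.14%, against 3.70% of all measured genes, and 0 members were at least 1.5-fold higher, against 3.73% of all genes. The 2 lower members were Insig1 and Soat1, and the count was 0 with normexp background correction, with spike-in centring and without background-flagged spots. At 1.2-fold, 6 members (Insig1, Soat1, Hsd17b7, Sqle, Idi1 and Stard4, 21.4%) were lower, against 13.0% of all genes, and 3 (Scap, Abca1 and Nsdhl, 10.7%) were higher, against 21.0%. At 2-fold there were 0 members either way, against 1.19% of all genes lower and 0.730% higher. Differences within 0.2 of zero on the log2 scale were as frequent among the members as among all genes, at 53.6% and 53.3%.

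**Figure D1:**
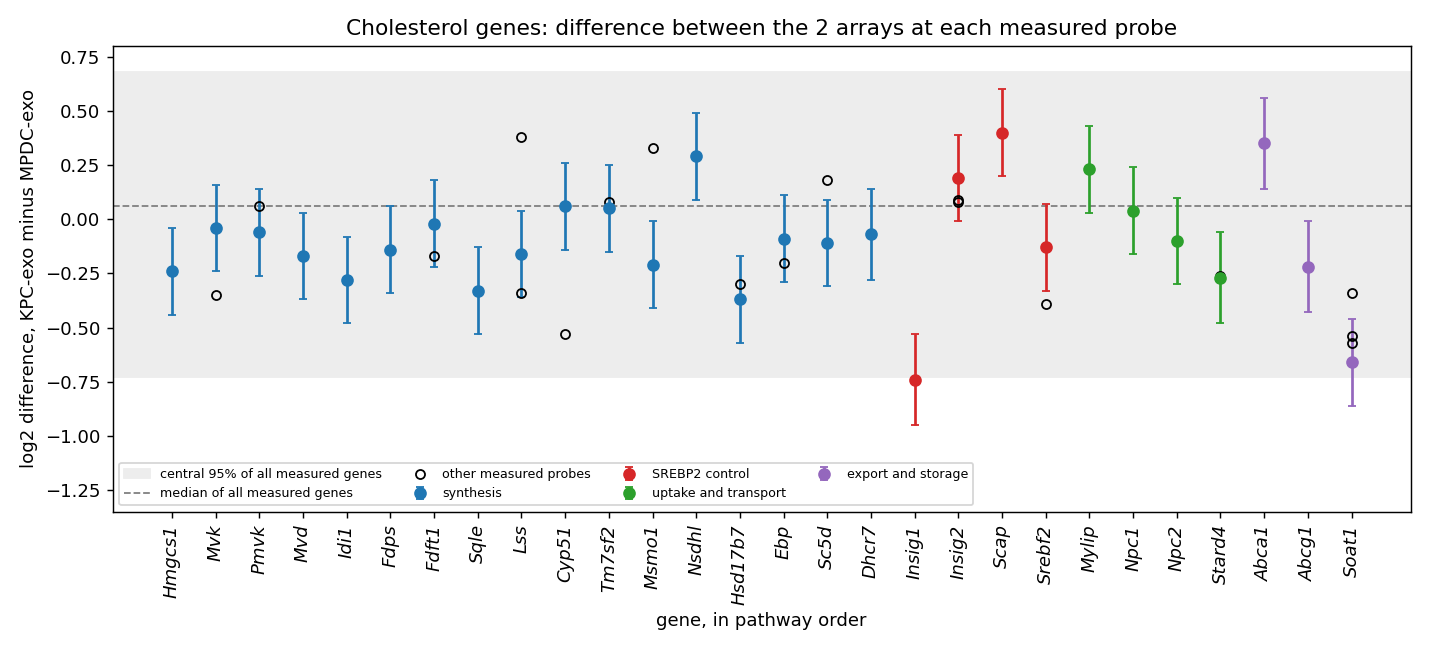
Log2 difference (KPC-exo minus MPDC-exo) of each of the 28 measured cholesterol genes in pathway order. Filled points are the brightest measured probe with the scanner software's error, open circles the other measured probes, the dashed line the median of all measured genes (0.06) and the grey band their central 95% (-0.73 to 0.68). Insig1 at -0.74 lies just outside the band and Soat1 at -0.66 just inside it. With spike-in centring every point, the line and the band would lie 1.00 higher together, with the median of all measured genes at 1.06.

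The 17 measured enzymes of synthesis had a median log2 difference of -0.11, or 0.89 with spike-in centring, where the median of all genes was 1.06. Of the 17, 16 lay below the median of all genes, among them Cyp51 and Tm7sf2 by less than 0.01. With normexp, Fdft1, Cyp51 and Tm7sf2 lay above it and Pmvk level with it. With no filter on dim probes the enzymes' median lay 0.03 above that of all genes. None of the 17 reached 1.5-fold. The lowest were Hsd17b7, a ketoreductase that acts on sterol intermediates, and Sqle, squalene epoxidase, which adds the oxygen that precedes ring closure. Hsd17b7 had a signal of 3352 units on the KPC-exo array and 2578 units on the MPDC-exo array, which after centring is 1.29-fold lower, at -0.37. Its second measured probe gave -0.30. Sqle had 19689 units with KPC-exo and 14788 units with MPDC-exo, 1.26-fold lower at -0.33, and its only measured probe carried a background flag on both arrays.

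The early steps, from HMG-CoA to squalene, had small negative values at their brightest probes, relative to the 75th percentile. Hmgcs1, which makes HMG-CoA, had log2 signals of 5.09 with KPC-exo and 5.33 with MPDC-exo, a difference of -0.24. Mvk and Pmvk, the kinases that phosphorylate mevalonate in turn, had -0.04 and -0.06, with -0.35 and 0.06 at their second probes. Mvd, the decarboxylase that follows, had log2 signals of 1.27 with KPC-exo and 1.44 with MPDC-exo, a difference of -0.17. Idi1, the isomerase of isopentenyl diphosphate, was 1.21-fold lower at -0.28, with 2.83 against 3.11. Fdps, which makes farnesyl diphosphate, had -0.14, and Fdft1, squalene synthase, had -0.02, with -0.17 at its second probe; both Fdft1 probes carried a background flag on both arrays. Apart from Idi1 these lay within or near the scanner error of 0.20, so single steps cannot be separated from each other.

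The members after ring closure were more mixed. Lss, lanosterol synthase, had -0.16 at its brightest probe, but its other 2 probes gave 0.38 and -0.34, a spread wider than any difference among the enzymes. Cyp51, the lanosterol demethylase, had 0.06, Tm7sf2, a sterol reductase, 0.05, and Dhcr7, which catalyses the last step to cholesterol, -0.07. For Msmo1, the sterol methyl oxidase, the brightest probe gave -0.21, while the second gave 0.33. Ebp, the sterol isomerase, had -0.09, with -0.20 at its other probe, and Sc5d, the sterol desaturase, had -0.11, with 0.18 at the other. Nsdhl, the sterol dehydrogenase that works in the same demethylation sequence as Msmo1 and Hsd17b7, was the exception. It had 4072 units with KPC-exo and 1984 units with MPDC-exo, 1.22-fold higher at 0.29, and 81.6% of all measured genes had a lower difference.

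**Figure D2:**
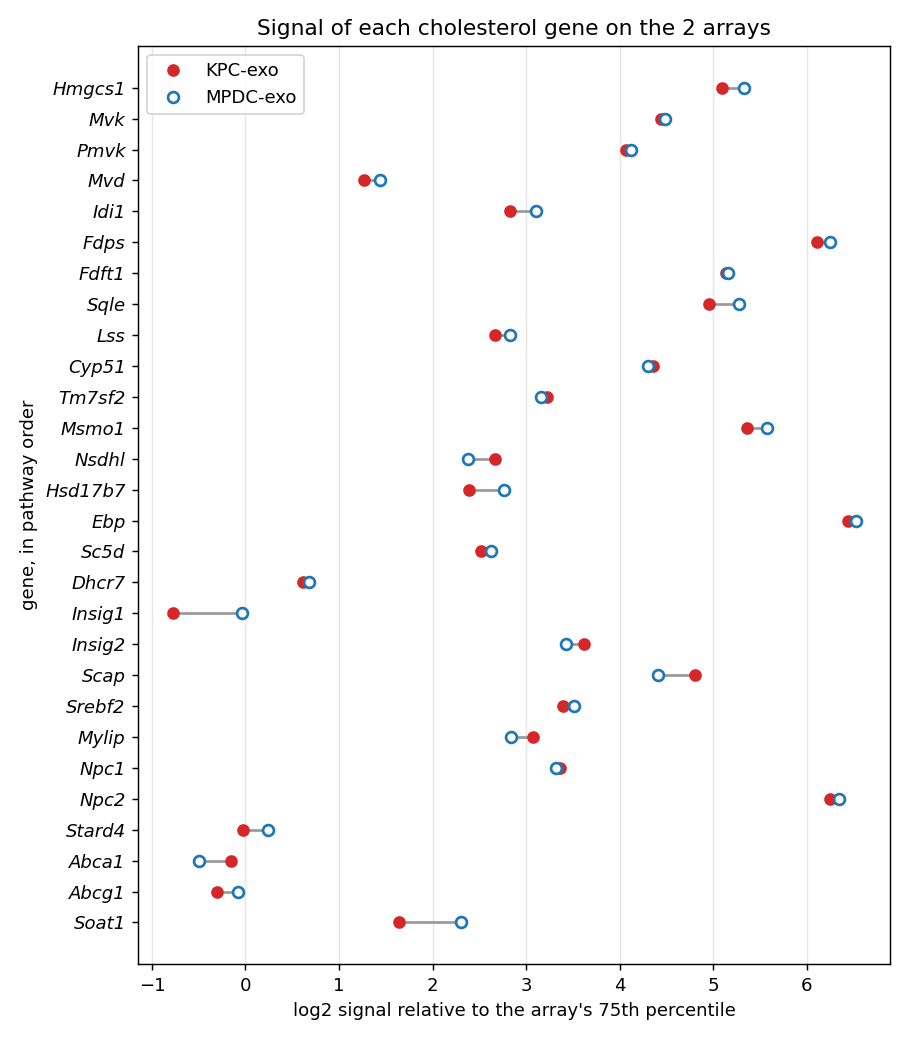
Log2 signal of the 28 genes, relative to each array's 75th percentile, on the KPC-exo array (filled red) and the MPDC-exo array (open blue), 1 array each, at the brightest measured probe. The 2 points of most genes nearly coincide, and those of Insig1 (-0.78 with KPC-exo, -0.04 with MPDC-exo) and Soat1 (1.64 with KPC-exo, 2.30 with MPDC-exo) are furthest apart; levels of different genes come from different probes and are not comparable.

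Acat2, the cytosolic thiolase that opens the pathway, is not analysed here under its own name. A probe named Acat3, after its close relative, also lists the Acat2 transcript among its targets. It had log2 signals of 0.17 with KPC-exo and 0.55 with MPDC-exo, a difference of -0.38, and a second Acat3 probe that does not list Acat2 gave -0.17. Which of the near-identical transcripts bound the first probe is uncertain.

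Among the 4 genes that control SREBP2, the largest differences pointed in opposite directions. Insig1 gave 373 ± 38.5 units on the KPC-exo array and 371 ± 37.7 units on the MPDC-exo array (scanner error), so the spots were about equally bright while the arrays' 75th percentiles were not. After centring this is -0.78 with KPC-exo and -0.04 with MPDC-exo, a difference of -0.74 and 1.67-fold lower, and 2.4% of all measured genes had a lower difference. The value rests on 1 probe (mm9, chr5:28404246-28404305). The local background around this spot on the MPDC-exo array was flagged as uneven, with a mean of 45.3 units, a median of 30 units and a pixel SD of 35.4 units, against a median pixel SD of 11.9 over that array. Background flags were set on 10.7% of the spots of the KPC-exo array and 3.9% of those of the MPDC-exo array. Without background-flagged spots Insig1 has no value. With normexp it was -0.57, under 1.5-fold, and with the median pixel signal, an alternative chosen after seeing the data, -0.63.

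Insig2, the paralog of Insig1 that is not induced by SREBP2, did not share this difference. It had log2 signals of 3.62 with KPC-exo and 3.43 with MPDC-exo, a difference of 0.19, and its other 2 probes gave 0.09 and 0.08. Insig1 thus lay 0.93 below Insig2 in log2 difference, with a scanner error of 0.29, and between 0.79 and 0.97 below it in the alternatives that measured both. That error leaves out the spread between probes of 1 gene, a pooled SD of 0.36 for each log2 difference, and Insig1 has 1 probe. Of the 3 Insig2 probes, 2 share 46 bases and the third spans an intron at chr1:123203517-123203752 (mm9), so its reading of spliced RNA comes from another part of the transcript. It is shown here with the probe of Cyp51 that also spans an intron (chr5:4092033-4092439, mm9), both on the minus strand and written 5′ to 3′ without capitals, since no single part is singled out.
Insig2 probe: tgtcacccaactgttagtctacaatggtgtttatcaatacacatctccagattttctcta
Cyp51 probe: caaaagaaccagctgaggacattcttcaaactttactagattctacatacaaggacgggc
The Insig2 probe had 2043 units with KPC-exo and 1151 units with MPDC-exo, a log2 difference of 0.08, close to the other Insig2 probes. The Cyp51 probe had 670 units with KPC-exo and 578 units with MPDC-exo, a log2 difference of -0.53, against 0.06 at the brighter Cyp51 probe, so the Cyp51 value depends on which probe is read.

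Scap, the escort of SREBP2, had the highest difference of the 28 members. It had 17875 units with KPC-exo and 8075 units with MPDC-exo, which after centring is 4.81 against 4.41, a difference of 0.40 and 1.32-fold higher. Higher differences were found in 9.9% of all measured genes, and the value rests on 1 probe. Srebf2, which encodes SREBP2 itself, had log2 signals of 3.39 with KPC-exo and 3.51 with MPDC-exo, a difference of -0.13, and -0.39 at its second probe.

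The uptake and transport genes showed 1 higher and 1 lower member slightly beyond the scanner error of 0.20 to 0.21. Mylip, a ubiquitin ligase that promotes the breakdown of lipoprotein receptors and is induced by LXR, had 5369 units with KPC-exo and 2721 units with MPDC-exo, 1.18-fold higher at 0.23. Taken from the median of all genes, Mylip lay 0.18 higher, which is inside the scanner error. Stard4, a carrier that moves sterol between membranes, had 625 units with KPC-exo and 449 units with MPDC-exo, 1.21-fold lower at -0.27, with -0.26 at its second, much dimmer probe. Npc1 and Npc2, which pass cholesterol out of the lysosome, had 0.04 and -0.10. Npc1 was measured at 1 of its 4 probes, and the other 3 stayed below the detection limit on both arrays.

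Among the storage and export genes, Soat1 was the lowest. It gave 1994 ± 200 units with KPC-exo and 1878 ± 188 units with MPDC-exo (scanner error), which after centring is 1.64 against 2.30, a difference of -0.66 and 1.58-fold lower. In Soat1 all 4 measured probes lay lower, at -0.66, -0.57, -0.54 and -0.34, at separate places within chr1:158358766-158376807 (mm9), and its remaining probe was not well above background. A lower difference was found in 3.1% of all measured genes. The brightest probe carried a background flag on the KPC-exo array, and without flagged spots Soat1 was represented by the probe at -0.34. With normexp it was -0.57 and as the mean over its probes -0.53, both under 1.5-fold. Abca1, which exports cholesterol to apolipoproteins, had 574 units with KPC-exo and 268 units with MPDC-exo, 1.28-fold higher at 0.35, and its probe across an intron stayed below the detection limit on both arrays. Abcg1, which exports it to lipoprotein particles, had 519 units with KPC-exo and 359 units with MPDC-exo, 1.16-fold lower at -0.22. The 3 members known as LXR targets, Abca1, Mylip and Abcg1, thus did not share a sign.

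**Figure D3:**
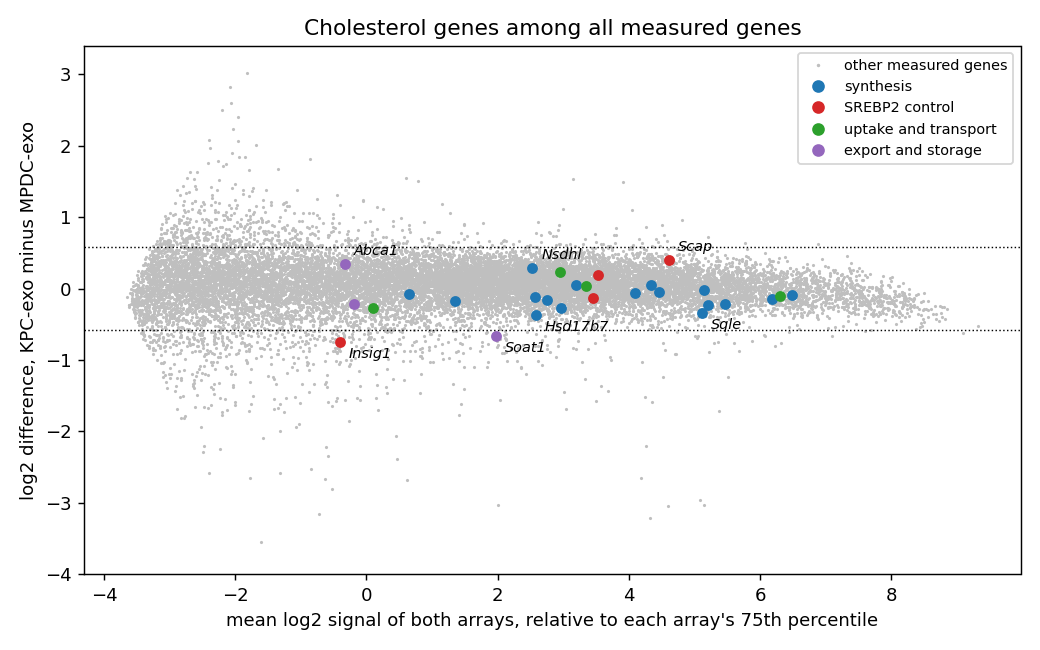
Log2 difference (KPC-exo minus MPDC-exo) against the mean log2 signal of both arrays for all 16993 measured genes (grey) and the 28 cholesterol genes (coloured by role). Dotted lines mark 1.5-fold. Insig1 and Soat1 are the 2 members below the lower line and no member is above the upper one, relative to each array's 75th percentile.

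Agreement between probes varied by gene. Of the 14 members with 2 or more measured probes, 9 had every probe below the median of all genes, in Cyp51 and Pmvk with 1 probe at 0.06 and so just under it, and 1 (Insig2) had every probe above it. The other 4, Lss, Tm7sf2, Msmo1 and Sc5d, had probes on both sides. Of the 46 measured member probes, 2 passed 1.5-fold, the brightest of Insig1 and of Soat1. Relative to the median of all genes in each setting, 17 members stayed below it and 5 above it in 12 alternatives, leaving aside the setting with no filter on dim probes. The 5 that stayed above were Nsdhl, Insig2, Scap, Mylip and Abca1. The other 6, Pmvk, Fdft1, Cyp51, Tm7sf2, Msmo1 and Npc1, changed side in at least 1 alternative. Centring on the median, on spike-in probes or on detected probes shifts all genes alike, so those alternatives could not change a side. In the setting left aside, Mvk, Ebp, Sc5d, Dhcr7, Srebf2 and Npc2 of the 17 lay above the median of all genes, by 0.02 to 0.11. Fdps lay level with it there.

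**Figure D4:**
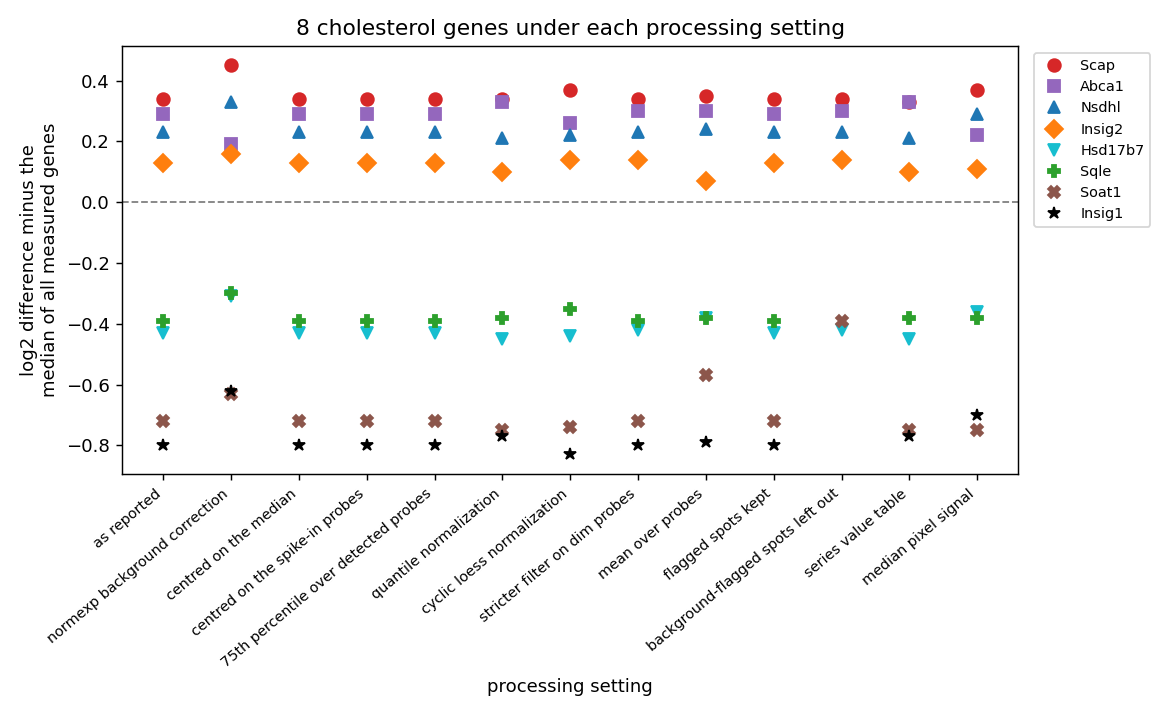
Log2 difference (KPC-exo minus MPDC-exo) of 8 cholesterol genes, minus the median of all measured genes, as reported and in 12 alternatives. Centring on the median, on spike-in probes or on detected probes shifts all genes alike and cannot change these values. Scap, Abca1, Nsdhl and Insig2 stayed above 0 and Hsd17b7, Sqle, Soat1 and Insig1 below it; Insig1 ran from -0.83 to -0.62 and Soat1 from -0.75 to -0.39, while Insig1 and Sqle have no value without background-flagged spots.

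Promoter windows were read from RefSeq (GRCm38.p6, 300 bases around each gene's start), which held 29 windows for 23 of the 29 genes. Fdps, Fdft1, Sqle, Npc1, Stard4 and Abcg1 had none. Shown are the 2 lowest members (Insig1 and Soat1), the Insig1 paralog, the highest member (Scap) and Hmgcs1, the 1 member whose window holds a sterol element core. Where a gene has several starts, the one listed first is shown. Capitals mark CCAAT, the box of the factor NF-Y that works with SREBP2 (read as ATTGG on the other strand), and the sterol element core TCACNCCAC. They run 5′ to 3′ on the strand of the gene: Insig1 from chr5:28071162-28071461 (plus), Soat1 from chr1:156474279-156474578 (minus), Insig2 from chr1:121332540-121332839 (minus), Scap from chr9:110333038-110333337 (plus) and Hmgcs1 from chr13:119690101-119690400 (plus).
Insig1: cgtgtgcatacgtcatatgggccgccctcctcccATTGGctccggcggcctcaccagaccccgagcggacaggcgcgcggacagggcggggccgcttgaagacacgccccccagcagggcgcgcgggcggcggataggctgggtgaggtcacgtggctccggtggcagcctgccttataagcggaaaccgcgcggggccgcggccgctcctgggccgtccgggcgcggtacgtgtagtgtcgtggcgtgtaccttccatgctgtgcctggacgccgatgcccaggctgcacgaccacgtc
Soat1: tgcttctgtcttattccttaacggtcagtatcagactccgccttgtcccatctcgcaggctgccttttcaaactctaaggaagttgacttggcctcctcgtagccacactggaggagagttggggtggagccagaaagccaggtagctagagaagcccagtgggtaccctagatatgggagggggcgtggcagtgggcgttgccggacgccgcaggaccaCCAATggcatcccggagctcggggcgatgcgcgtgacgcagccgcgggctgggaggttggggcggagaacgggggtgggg
Insig2: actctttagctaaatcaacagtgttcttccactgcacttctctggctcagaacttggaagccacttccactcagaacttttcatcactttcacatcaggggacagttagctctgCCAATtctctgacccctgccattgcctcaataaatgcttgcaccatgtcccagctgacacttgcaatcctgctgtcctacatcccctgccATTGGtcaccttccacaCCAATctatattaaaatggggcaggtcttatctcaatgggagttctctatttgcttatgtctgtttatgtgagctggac
Scap: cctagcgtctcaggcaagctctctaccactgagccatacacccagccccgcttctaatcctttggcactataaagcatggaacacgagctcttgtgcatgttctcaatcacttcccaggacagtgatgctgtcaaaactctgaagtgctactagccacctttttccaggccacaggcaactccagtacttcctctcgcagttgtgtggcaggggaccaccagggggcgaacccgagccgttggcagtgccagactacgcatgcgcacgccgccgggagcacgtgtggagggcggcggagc
Hmgcs1: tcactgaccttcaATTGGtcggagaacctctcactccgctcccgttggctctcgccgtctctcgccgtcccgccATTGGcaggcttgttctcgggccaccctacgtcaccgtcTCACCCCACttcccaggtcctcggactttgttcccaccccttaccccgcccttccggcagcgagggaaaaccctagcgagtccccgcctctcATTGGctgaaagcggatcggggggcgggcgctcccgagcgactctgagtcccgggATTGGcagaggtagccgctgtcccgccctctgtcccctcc
The windows hold 1 CCAAT box in Insig1, 1 in Soat1, 3 in Insig2, 0 in Scap and 4 in Hmgcs1. On either strand, CCAAT was found in 20 of the 29 windows (69.0%), against 37.4% of all 32851 windows. The core TCACNCCAC was in 1 of 29 (3.45%), against 1.24% of all windows, and the classical sterol regulatory element in 0 of 29, against 0.0913%. The log2 differences of these 5 genes were -0.74 for Insig1, -0.66 for Soat1, 0.19 for Insig2, 0.40 for Scap and -0.24 for Hmgcs1. Insig1, Soat1 and Scap are shown because their differences were extreme, and a link between boxes and difference was not tested. A match is only a match of letters, and the windows leave out elements further from the start.

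Genes next to the pathway did not share the lower values as a whole. Of 44 related sterol genes in 9 lists, 40 were measured, with a median log2 difference of 0.10, and 19 lay below the median of all genes. At least 1.5-fold lower was 1 of them, against 3.70% of all genes, and 0 were higher, against 3.73%. That gene was Cyp46a1, a cholesterol hydroxylase known from neurons, at a log2 difference of -0.92 and a dim signal of -3.35 with KPC-exo and -2.43 with MPDC-exo. The next lowest was Ggps1, which makes geranylgeranyl diphosphate, at -0.53, though its 6 probes ranged from -0.53 to 0.60. The highest were the oxysterol-binding proteins Osbpl2 and Osbp, which move sterol between membranes, at 0.53 and 0.52. Both probes of Osbpl2 were higher, at 0.53 and 1.08, while those of Osbp ranged from -0.38 to 0.52. Soat2, Lcat, Cyp27a1 and Cyp7b1 were not measured.

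By list, the 9 genes of SREBP processing and turnover had a median log2 difference of 0.19, with Pgrmc1, a membrane protein that binds SCAP and INSIG1, at 0.45, Srebf1, which encodes SREBP1, at 0.19 and Mbtps1, the first protease to cut SREBP, at -0.12 (probes from -1.15 to -0.06). The 3 genes of the LXR list had a median of 0.26, with the receptor Nr1h2 at 0.21, though its other probe gave -0.60, and Nr1h3 at 0.29. The 5 other transport and export genes had 0.37, but a second probe was negative in Osbp (-0.38), Abca7 (-0.52), Abcg4 (-0.11) and Gramd1a (-0.02). The 7 other uptake genes had -0.05, with Stard3, a late endosomal sterol carrier, at 0.49 (-0.03 at its other probe) and Lipa, the lysosomal lipase that frees cholesterol from its esters, at -0.17. The 3 genes of acetyl-CoA and acetoacetate supply had -0.06, with Acly, the enzyme that makes cytosolic acetyl-CoA, at -0.17. The 5 other SREBP targets had 0.05, with the desaturases Scd1 at 0.13 and Fads2 at -0.30 (probes from -0.83 to -0.04). For the 5 isoprenoid branch genes the median was 0.12. The 2 measured oxysterol enzymes had a median of -0.41, from Ch25h at 0.10 and the dim Cyp46a1 at -0.92. Nceh1, which releases cholesterol from stored ester, was the 1 measured gene of the storage list at -0.10.

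**Figure D5:**
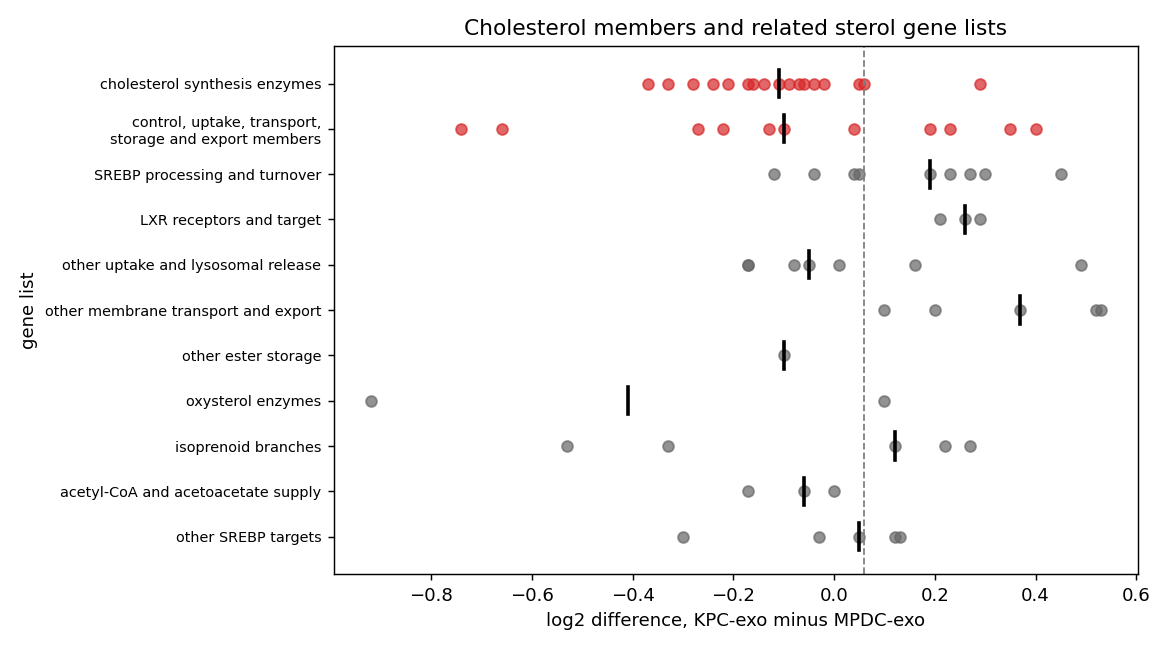
Log2 difference (KPC-exo minus MPDC-exo) of the cholesterol genes (red) and of the measured genes of 9 related lists (grey), relative to each array's 75th percentile. Each point is a gene at its brightest measured probe, black bars are list medians and the dashed line is the median of all measured genes (0.06). The median of the synthesis enzymes is -0.11 and that of the other members -0.10. With spike-in centring they are 0.89 and 0.90, and the median of all measured genes is then 1.06.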

How the data were processed

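Total RNA of 2 cultures was labelled with Cy3 and hybridised to 1-colour Agilent arrays, per the labels. The deposited scanner files hold spot intensity made by Agilent Feature Extraction 10.7.1.1 (the version stands in the headers and in the submitters' processing notes), per the file headers with background and spatial trends removed on each array but no scaling between arrays. The deposited series table holds log2 values with the same quartiles on both arrays, by steps the labels leave unstated. Per the file headers, probe positions refer to the mm9 build. No columns of other samples were present.

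After removal of non-uniform and population-outlier spots (166 on the KPC-exo array, 102 on the MPDC-exo array), log2 processed signals were averaged per probe, and the 75th percentile of each array was taken off. Of 56578 probes, 47.6% on the KPC-exo array and 45.9% on the MPDC-exo array were well above background. The number of arrays, 1 per group, limits precision. Probes spotted 10 times had a median SD of 0.028 with KPC-exo and 0.029 with MPDC-exo on the log2 scale (292 probes). A gene is represented by its brightest measured probe, and all other probes of the members are used as described. RefSeq names of GRCm38.p6 matched 32994 of 56605 probes.

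Every member was named, and of the related lists those with the 2 largest differences in each direction, with further examples chosen after their values were seen. The members, lists and motifs were chosen with earlier results of these data known. The code of the summary was checked for whether it returns set changes on simulated arrays. These had every probe counted as measured and the same change at all probes of a gene. The check therefore does not cover dim probes or disagreement between probes. The alternatives were normexp (offset 50), centring on the median, on detected probes or on 7 spike-in probes, cyclic loess or quantile normalization, a stricter or no filter (at or above the 25th percentile), the mean over probes, other spot flags, the series table, other thresholds and, added after seeing the data, the median pixel signal. The tools were Python 3.11.15 (pandas 2.3.3, numpy 2.4.6, matplotlib 3.10.9) and R 4.3.3 (limma 3.58.1).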

Additional observations from a re-analysis of the deposited data

How the results depend on the processing

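Of 361 values of single members in 13 alternatives, 332 moved by less than the SD between probes of a gene (0.36) and 27 by more. The other 2 changed sign after passing 1.5-fold, while smaller values that changed sign are inside the 332 and the 27. All but 1 of the 29 values outside the 332 came from spike-in centring, where Insig1 was 0.26 and Soat1 0.34. There the medians of all members and of the synthesis enzymes were 0.89 and that of the other members 0.90, against 1.06 for all measured genes. With all genes shifted in this way, 0 members were 1.5-fold lower and 26 higher, with 38 related genes apart. The share of all genes past 1.5-fold in this setting was not computed, and the cause of the shift was not tested. The exception was Msmo1, which without background-flagged spots was read at another probe, 0.33. Every member had a positive difference with spike-in centring. Among the smaller values that changed sign elsewhere, with the mean over probes Cyp51 went from 0.06 to -0.24 and Msmo1 from -0.21 to 0.06. The count of members 1.5-fold lower was 0 with normexp, 0 without background-flagged spots, where Insig1, Sqle and Fdft1 had no value, and 1 with the mean over probes. It was 6 at 1.2-fold (21.4%, against 13.0% of all genes) and 0 at 2-fold (against 1.19%). The count higher was 3 at 1.2-fold (10.7%, against 21.0%). Shares of all genes were not computed for the counts in the other settings. Of the related genes, 1.5-fold apart were 2 with normexp, quantile, cyclic loess, no filter, the mean over probes, the series table and the median pixel signal, 0 with the stricter filter, 13 at 1.2-fold and 0 at 2-fold. With no filter on dim probes the median of all genes was -0.15 and the members' median lay 0.04 above it, in place of 0.16 below, over 37305 genes, the added ones not well above background on both arrays. In the other 12 alternatives the members' median lay 0.12 to 0.18 below that of all genes, with 21 to 23 of 28 members below it beside the 18 of 28 with normexp and 17 of 25 without background-flagged spots. Those that change only the centring shift all genes alike and could not alter this distance. No paired analysis was possible because there is 1 array per group. Agreement among alternatives says nothing about variation between cultures.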
